A study of Mus musculus with 7 samples.

Results

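A set of 10 genes of the actin cytoskeleton, which serum response factor (SRF) is known to drive or which are closely related to such a gene, was followed in C2C12 cells, a mouse skeletal muscle line, after exposure to exosomes, the small vesicles that cells release. They are Tagln, Acta2, Cnn1, Myl9, Tpm1, Tpm2, Vcl, Srf, Actg2 and Tagln2. Their 18 probes are all the non-control probes that carry one of these names, out of 39429 probes and 31829 gene names on the array, and all 18 entered the test among 21589. Donor C2C12 myotubes had been treated with 0.5 mM palmitate bound to bovine serum albumin (BSA) or with BSA alone, and their exosomes were collected 9 h after palmitate was removed. Recipient C2C12 cells were incubated for 24 h in serum-free medium with exosomes of palmitate-treated donors (EXO-Post Palm, 3 arrays) or of BSA-treated donors (EXO-Post BSA, 4 arrays), so every array is of exosome-treated cells and no array of cells without exosomes was used here. The source label names C2C12 on every sample, but the number in the cell line label differs from sample to sample, and all samples were taken as C2C12 here. The labels call the cells myoblasts, whereas the methods describe recipients differentiated into myotubes. All 11 myotube markers looked up, such as Myog, Ckm and Mylpf, were measured above the filter, as were 6 of 8 myoblast markers, and Myf5 and Msc were not.

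SRF is a transcription factor that binds a short element, the CArG box, in front of genes of the cytoskeleton and of muscle. It works with cofactors of the myocardin family, some of which are freed to enter the nucleus when actin monomers are used up in filaments. It also works with ternary complex factors that respond to growth signals, and it acts on its own gene. Many of its targets are named for smooth muscle but are transcribed in skeletal myoblasts and young myotubes as well, where they build stress fibres and anchor them to the membrane.

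Promoter windows, from 250 bases before to 50 after the transcription start, were at hand for 8 of the 10 genes. A CArG box in its strict form, 2 C, 6 A or T and 2 G, which reads the same on both strands, was found in the windows of 3 of them, Myl9, Vcl and Srf, and in 1.63% of all 32851 windows of mouse genes. Of the genes of the other lists described below, which include further SRF targets, 8 of the 74 in the table had one. The 250 bases upstream of these 3 genes are shown with the box in capitals, beside those of Cnn1, whose signal differed between the groups and whose window holds no strict box. Sequences are from RefSeq on GRCm38.p6 and read 5′ to 3′ on the strand of the gene, which is the plus strand of chr2:156775214-156775463 for Myl9, the plus strand of chr14:20929148-20929397 for Vcl, the minus strand of chr17:46556163-46556412 for Srf and the plus strand of chr9:22099003-22099252 for Cnn1.
Myl9: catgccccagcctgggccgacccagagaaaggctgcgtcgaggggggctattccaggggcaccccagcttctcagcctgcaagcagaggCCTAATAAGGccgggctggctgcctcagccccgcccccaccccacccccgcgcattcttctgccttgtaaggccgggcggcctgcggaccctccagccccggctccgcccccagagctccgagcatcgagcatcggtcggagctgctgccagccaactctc
Vcl: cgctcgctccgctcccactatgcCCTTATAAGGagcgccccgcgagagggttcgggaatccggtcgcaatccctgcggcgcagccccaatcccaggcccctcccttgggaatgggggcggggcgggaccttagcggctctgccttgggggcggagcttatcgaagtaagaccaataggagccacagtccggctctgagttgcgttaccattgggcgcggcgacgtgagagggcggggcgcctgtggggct
Srf: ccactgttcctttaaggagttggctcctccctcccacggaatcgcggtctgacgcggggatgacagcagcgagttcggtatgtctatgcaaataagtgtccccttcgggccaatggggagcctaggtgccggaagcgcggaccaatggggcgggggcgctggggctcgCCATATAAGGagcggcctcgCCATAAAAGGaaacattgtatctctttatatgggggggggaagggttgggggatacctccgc
Cnn1: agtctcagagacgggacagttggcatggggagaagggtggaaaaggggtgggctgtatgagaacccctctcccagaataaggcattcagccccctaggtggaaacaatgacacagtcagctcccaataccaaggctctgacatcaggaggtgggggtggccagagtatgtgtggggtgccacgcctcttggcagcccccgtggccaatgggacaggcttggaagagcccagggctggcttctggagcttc
The box of Myl9 begins at position -161 from the start, that of Vcl at -227, and the pair in front of Srf at -82 and -62. A match is a run of letters and was not tested for binding, and the absence of a match covers only these letters in this window. Acta2, Tpm1, Tpm2 and Tagln2 had no match either, and Tagln and Actg2 were not in the table.

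Values are log2 signals of a probe relative to the 75th percentile of its array, which is 0, so they compare arrays for 1 probe and not 1 probe with another. Over the 18 probes, 14 were lower with EXO-Post Palm and 4 were higher, beside 52.7% of all tested probes that were lower. The test called 2 of the 18, Tagln and Cnn1, both lower, at a threshold of 0.05 on limma p-values adjusted by Benjamini-Hochberg across the whole tested set. Over all tested probes 15 were called lower (0.0695%) and 100 were called higher (0.463%), which is 0.533% in all. With normexp background correction and quantile normalisation the split was 31 lower and 97 higher. At an unadjusted p under 0.05, 7 of the 18 were lower and 1 was higher, beside 5.19% and 4.85% of all. A log2 difference of -1 or less was found for 3 of the 18, Tagln, Cnn1 and Actg2, and for 2.84% of all. The groups did not overlap, with every EXO-Post Palm array below every EXO-Post BSA array, for 6 of the 18 probes and for 5.66% of all. The opposite held for 1 probe of Tagln2 and for 5.32% of all. The median log2 difference was -0.34 over the 18 probes and -0.02 over all tested probes, and with the brightest probe of each of the 10 genes it was -0.66. In RNA of whole cultures, fewer cells that express a gene and less RNA per cell cannot be told apart.

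**Figure D1:**
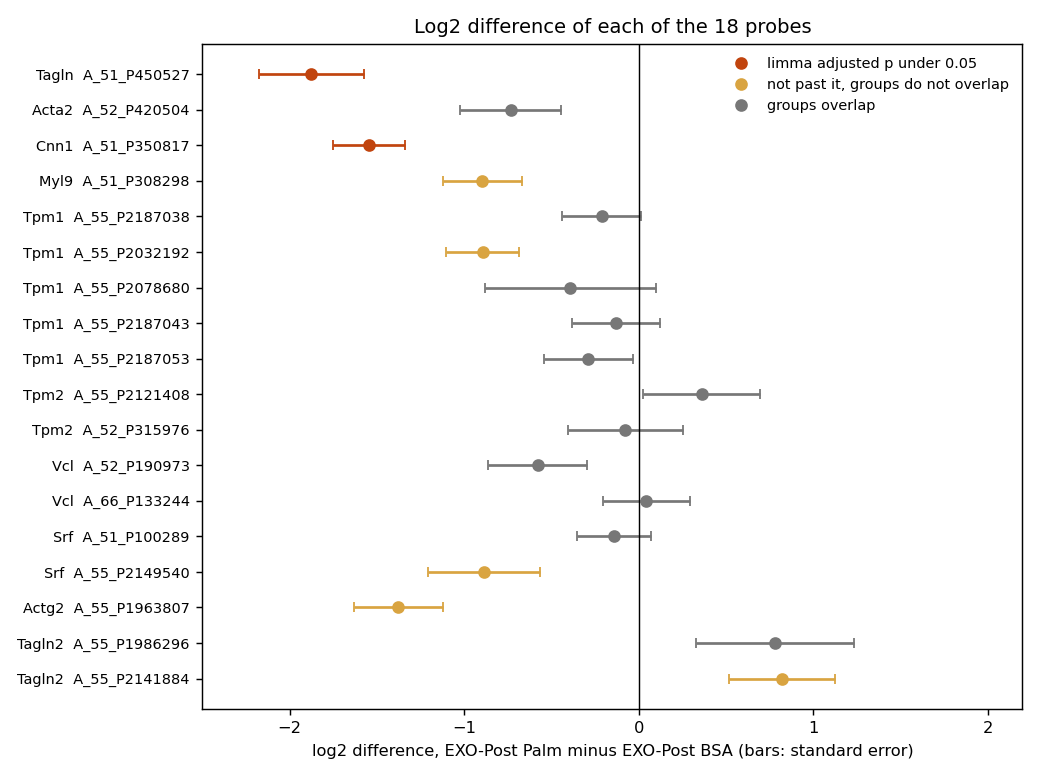
Log2 difference of each of the 18 probes between EXO-Post Palm (3 arrays) and EXO-Post BSA (4 arrays), with the standard error of the limma fit as bars and colours for the test and for overlap of the groups. Tagln and Cnn1 lie furthest left with Actg2, and both probes of Tagln2 lie right of 0.

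Tagln encodes transgelin, also called SM22, a calponin-family protein that binds actin filaments. Its probe A_51_P450527 (mm9 chr9:45738097-45738156) read 4.59, 4.83, 5.10 and 4.91 with EXO-Post BSA and 2.57, 3.68 and 2.68 with EXO-Post Palm, here and throughout in the order of the replicate numbers. All EXO-Post Palm arrays were below all EXO-Post BSA arrays, and EXO-Post Palm replicate 2 was the nearest to them. Tagln fell from a mean of 4.85 ± 0.21 (SD, n = 4) to 2.98 ± 0.61 (SD, n = 3), a log2 difference of -1.88 with a standard error of 0.301 and an adjusted p of 0.0424, or 3.67-fold lower.

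Cnn1 encodes calponin 1, which binds actin and restrains the myosin ATPase. The probe A_51_P350817 (mm9 chr9:21913058-21913117) read -1.82, -1.85, -1.86 and -1.99 with EXO-Post BSA and -3.46, -3.12 and -3.69 with EXO-Post Palm. The EXO-Post BSA arrays lay within a narrow band, and the EXO-Post Palm arrays were all well below it. The means were -1.88 ± 0.07 (SD, n = 4) and -3.42 ± 0.28 (SD, n = 3). The log2 difference was -1.54 with a standard error of 0.207 and an adjusted p of 0.0193, or 2.91-fold lower. The probe was well above background on all 7 arrays but dim. Its intensities before scaling were 327, 251, 235 and 183 with EXO-Post BSA and 147, 74.5 and 42.7 with EXO-Post Palm. With normexp background correction and quantile normalisation, the log2 difference was smaller, at -1.09, with a limma adjusted p of 0.0424.

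Both calls depended on single arrays. With EXO-Post Palm replicate 2 left out, Tagln had a log2 difference of -2.23 and an adjusted p of 0.0123. With any other array left out, the Tagln difference was -1.96 to -1.67 and the adjusted p was 0.0762 to 0.185, with EXO-Post Palm replicate 3 the array whose removal raised p the most. For Cnn1 the adjusted p was 0.0167 on removal of EXO-Post Palm replicate 2, 0.0438 on removal of EXO-Post BSA replicate 4 and 0.0520 to 0.104 on removal of any other array. Both genes were lower under all 21 alternative settings and left-out arrays.

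Actg2 and Acta2 encode the gamma and alpha actins named for enteric and vascular smooth muscle. The Actg2 probe A_55_P1963807 (mm9 chr6:83462904-83462963) read 2.26, 2.50, 2.59 and 2.52 with EXO-Post BSA and 0.88, 1.63 and 0.76 with EXO-Post Palm. The groups did not overlap, and EXO-Post Palm replicate 2 was again the nearest to the other group. The means were 2.47 ± 0.15 (SD, n = 4) and 1.09 ± 0.47 (SD, n = 3), and the log2 difference of -1.38, with a standard error of 0.255, did not pass the test (adjusted p = 0.0679). It passed with EXO-Post Palm replicate 2 left out, at -1.65 and an adjusted p of 0.0199. Without any other single array the adjusted p was 0.120 to 0.292.

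The Acta2 probe A_52_P420504 (mm9 chr19:34316060-34316119), which is printed in 10 spots that were averaged, read 6.48, 6.68, 7.0 and 7.04 with EXO-Post BSA and 5.70, 6.69 and 5.81 with EXO-Post Palm. EXO-Post Palm replicate 2, where 1 of these spots was left out as an outlier, lay among the EXO-Post BSA arrays, and the other 2 lay below them. The log2 difference was -0.73 with a standard error of 0.290 and an adjusted p of 0.450.

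Myl9 encodes the regulatory light chain of nonmuscle and smooth muscle myosin, whose phosphorylation starts contraction of stress fibres. Its probe A_51_P308298 (mm9 chr2:156607301-156607360) read 5.35, 5.12, 5.22 and 5.09 with EXO-Post BSA and 4.01, 4.72 and 4.17 with EXO-Post Palm. Every EXO-Post Palm array was below every EXO-Post BSA array. The log2 difference of -0.90 had a standard error of 0.228 and an adjusted p of 0.198, so Myl9, with a box in the window shown above, did not pass the test over all probes.

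**Figure D2:**
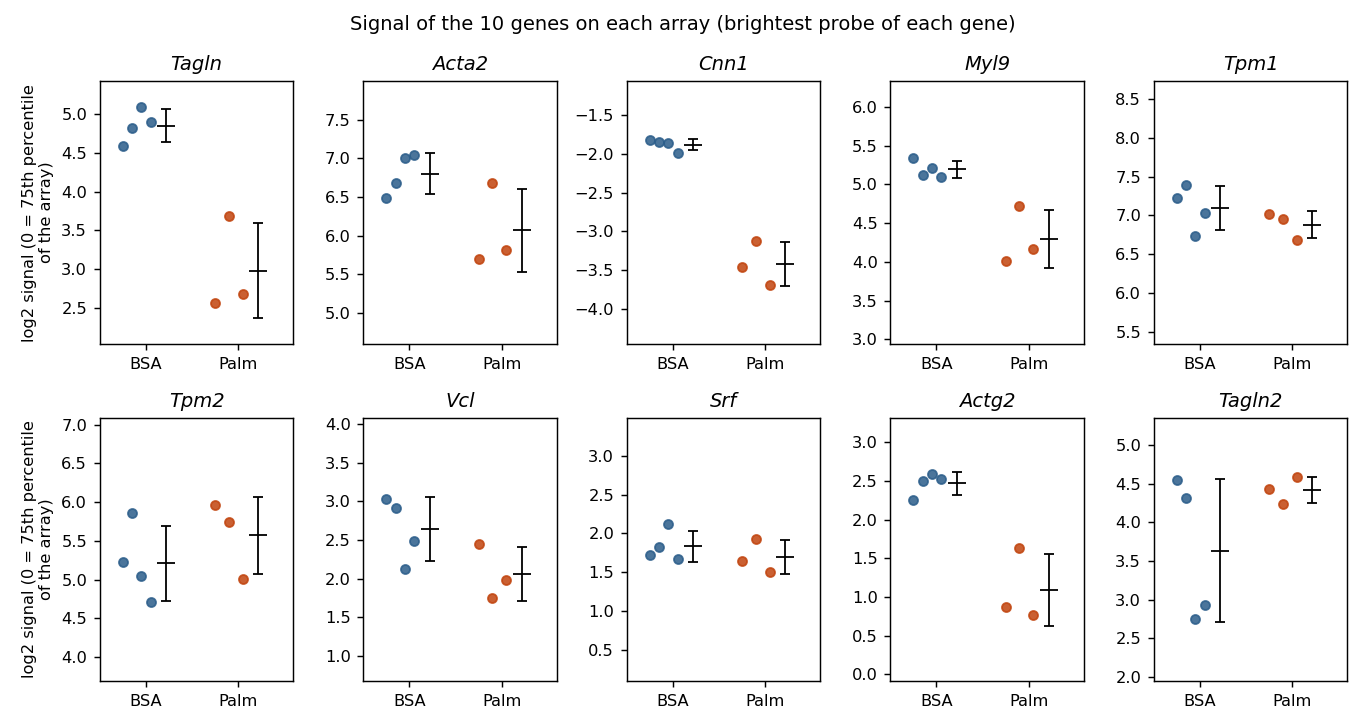
Log2 signal of the brightest probe of each gene on each EXO-Post BSA array (4 points) and EXO-Post Palm array (3 points), relative to the 75th percentile of the array, with the mean and SD as a bar beside the points. All panels span the same number of log2 units, and the groups are apart for Tagln, Cnn1, Myl9 and Actg2.

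Slides were compared because 4 of them carried the 7 arrays. Replicates 1 and 2 of EXO-Post BSA shared slide 1 with replicate 1 of EXO-Post Palm, replicate 4 of EXO-Post BSA shared slide 3 with replicate 3 of EXO-Post Palm, and each further slide carried a single array. Within slide 1 the EXO-Post Palm array was below the mean of the EXO-Post BSA arrays by a log2 difference of -2.14 for Tagln, -1.63 for Cnn1, -1.50 for Actg2, -1.22 for Myl9 and -0.88 for Acta2. Within slide 3 the differences were -2.22, -1.70, -1.76, -0.93 and -1.23 in the same order. All 5 genes were lower on both slides that allow the comparison. That direction follows from the array values given above and is no separate support, so only the sizes are added here. With slide as a fixed block, Tagln had a log2 difference of -2.17 and an adjusted p of 0.0327, and Cnn1 of -1.66 and 0.0523. An array alone on its slide adds nothing to the difference in that fit. It therefore rests on slides 1 and 3, without EXO-Post BSA replicate 3 and EXO-Post Palm replicate 2.

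Tropomyosins are rods that lie along actin filaments and set which proteins may bind them. Tpm1 was measured by 5 probes, of which the brightest, A_55_P2187038 (mm9 chr9:66875796-66875855), read 7.22, 7.39, 6.74 and 7.03 with EXO-Post BSA and 7.02, 6.95 and 6.68 with EXO-Post Palm. The groups overlapped, with a log2 difference of -0.21 and an adjusted p of 0.792. The probe A_55_P2187043, which shares 46 bases of target with it, had a log2 difference of -0.13, A_55_P2187053 (mm9 chr9:66872131-66872190) one of -0.29 and A_55_P2078680 (mm9 chr9:66880274-66880333) one of -0.39, with overlap of the groups and an adjusted p of 0.745 or more for each. The last of these was the dimmest and cleared the background on 3 of 4 arrays with EXO-Post BSA and 2 of 3 with EXO-Post Palm.

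A further Tpm1 probe, A_55_P2032192 (mm9 chr9:66871166-66871225), read 3.61, 3.81, 3.56 and 3.63 with EXO-Post BSA and 3.03, 2.76 and 2.49 with EXO-Post Palm. Its groups did not overlap, and its log2 difference of -0.89, with a standard error of 0.208, had an adjusted p of 0.152. The array annotation ties this probe to the transcript NM_001164249 and the brightest one to NM_001164248. The log2 ratio of this probe over the brightest one, taken within each array, was -3.61, -3.59, -3.17 and -3.39 with EXO-Post BSA and -3.99, -4.19 and -4.19 with EXO-Post Palm. The ratio was lower on all EXO-Post Palm arrays by a log2 difference of -0.68, with a 2-sided exact permutation p of 0.0286, the smallest that 7 arrays allow, and 0.229 after adjustment over the 8 such pairs of probes of 1 gene, a test added after the values had been seen. In the other 7 pairs the exact permutation p was 0.171 to 0.971. Which exons the probes lie in was not analysed here.

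Tpm2 was measured by 2 probes, whose log2 differences had opposite signs. The brighter one, A_55_P2121408 (mm9 chr4:43532262-43532321), read 5.23, 5.86, 5.04 and 4.71 with EXO-Post BSA and 5.96, 5.74 and 5.01 with EXO-Post Palm, a log2 difference of 0.36 with an adjusted p of 0.758. The probe A_52_P315976 (mm9 chr4:43531276-43531335) had a log2 difference of -0.08 and an adjusted p of 0.956. The groups overlapped for both.

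Vcl encodes vinculin, which links integrin adhesions to actin filaments. The brighter of its 2 probes, A_52_P190973 (mm9 chr14:21852105-21852164), read 3.03, 2.91, 2.13 and 2.49 with EXO-Post BSA and 2.44, 1.75 and 1.98 with EXO-Post Palm. The groups overlapped, with a log2 difference of -0.58, a standard error of 0.286 and an adjusted p of 0.552. The other probe, A_66_P133244 (mm9 chr14:21848574-21849035), had a log2 difference of 0.04 and an adjusted p of 0.969, and it turned to -0.016 when each array was centred on its median, a scaling that moved the median of all tested probes to -0.08.

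Srf itself was measured by 2 probes. The brighter one, A_51_P100289 (listed at mm9 chr17:46683788-46683795), read 1.73, 1.82, 2.12 and 1.67 with EXO-Post BSA and 1.65, 1.93 and 1.50 with EXO-Post Palm. The groups overlapped, with a log2 difference of -0.14, a standard error of 0.213 and an adjusted p of 0.861. The other probe, A_55_P2149540 (mm9 chr17:46685306-46685365), had means of 0.22 ± 0.34 (SD, n = 4) and -0.67 ± 0.60 (SD, n = 3), without overlap of the groups, and a log2 difference of -0.89 with an adjusted p of 0.404. The log2 ratio of the 2 probes differed between the groups by -0.74, with an exact permutation p of 0.200.

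Tagln2 encodes transgelin 2, the relative of Tagln found in many nonmuscle cells, and both of its probes were brighter with EXO-Post Palm on average. The brighter probe, A_55_P1986296 (mm9 chr1:174437450-174437506), read 4.54, 4.31, 2.75 and 2.93 with EXO-Post BSA and 4.43, 4.24 and 4.58 with EXO-Post Palm. EXO-Post BSA replicates 1 and 2, both on slide 1, lay with the EXO-Post Palm arrays and replicates 3 and 4 lay below them. The log2 difference was 0.78 with a standard error of 0.454 and an adjusted p of 0.612, and it was 0.01 within slide 1 and 1.65 within slide 3. The probe A_55_P2141884 (mm9 chr1:174436738-174436797) read 0.73, 1.63, 1.85 and 1.62 with EXO-Post BSA and 1.96, 2.34 and 2.54 with EXO-Post Palm, all above the other group. Its log2 difference was 0.82 with a standard error of 0.303 and an adjusted p of 0.418, and it was 0.78 within slide 1 and 0.92 within slide 3.

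Whether related genes changed unequally was asked within each array, for 3 pairs, with the brightest probe of each gene and adjustment over the pairs. The log2 ratio of Tagln over Tagln2 was 0.04, 0.52, 2.34 and 1.97 with EXO-Post BSA and -1.86, -0.56 and -1.89 with EXO-Post Palm. The groups did not overlap and differed by -2.66, with a 2-sided exact permutation p of 0.0571 and an adjusted p of 0.0857. The log2 ratio of Acta2 over Actg2 was 4.23, 4.18, 4.41 and 4.52 with EXO-Post BSA and 4.83, 5.06 and 5.05 with EXO-Post Palm. It was higher on all EXO-Post Palm arrays by 0.64, with an exact permutation p of 0.0286 and an adjusted p of 0.0857. Normexp background correction with quantile normalisation, and the authors' processed values, each gave an adjusted exact permutation p of 0.0429 for both of these pairs. It stayed at 0.0857 for both with quantile normalisation alone, with median centring and with outlier spots kept. With 1 array left out it was 0.100 to 0.200 for both, where the smallest exact permutation p that fewer arrays allow is larger than 0.0286. The ratio of Tpm1 over Tpm2 differed by -0.57, with overlap of the groups and an exact permutation p of 0.114. Acta2 and Actg2 are close in sequence, and whether their probes bind each other's transcripts was not tested.

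**Figure D3:**
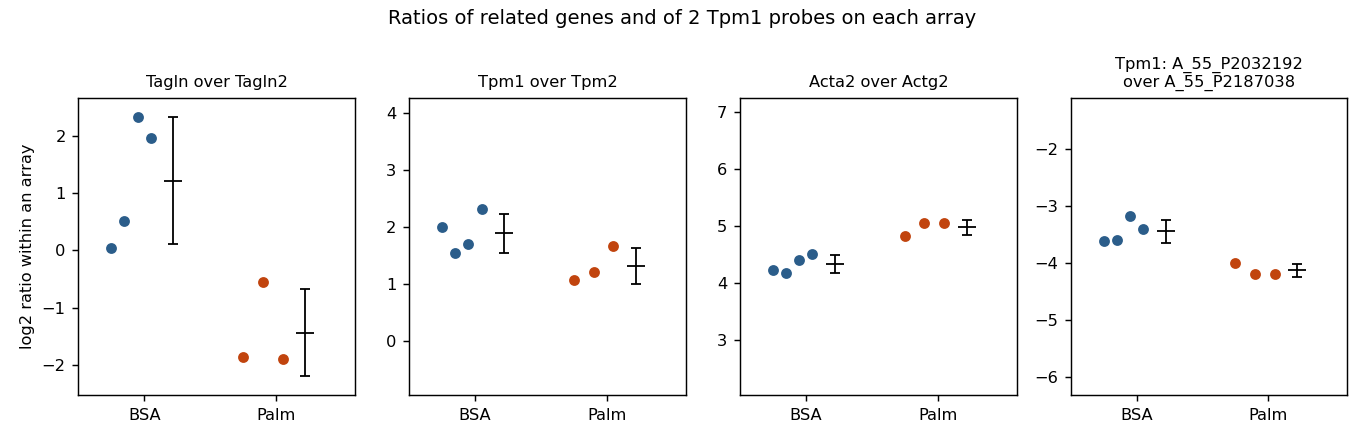
Log2 ratio of 2 probes within each array, for 3 pairs of related genes and for 2 probes of Tpm1, on the EXO-Post BSA (4 points) and EXO-Post Palm (3 points) arrays, with the mean and SD as a bar. All panels span the same number of log2 units, and the groups are apart except for Tpm1 over Tpm2.

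Likeness to Tagln was measured as the root mean square difference over the 7 arrays, in log2 units, after each probe was centred on its EXO-Post BSA mean. Over 21571 tested probes outside the 10 genes, those close to it included Igfbp3 (0.207), Lrrc32 (0.213), Ntsr2 (0.338) and Timp3 (0.341). Igfbp3 encodes a carrier of insulin-like growth factors, Lrrc32 a cell-surface anchor of latent TGF-beta, Ntsr2 a neurotensin receptor and Timp3 an inhibitor of metalloproteinases. Of the 10 genes, Cnn1 (0.341) and Actg2 (0.344) were nearest to Tagln, at places 5 and 7 among all other tested probes, followed by Myl9 at 134 and Acta2 at 232. The likeness includes the size of the difference, and the arrays are the ones already compared.

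The other genes of the pathway were taken from lists, with 1 probe per gene. Among all tested probes, 52.7% were lower and 10% had an unadjusted limma p under 0.05 in either direction. Of 22 cofactors and upstream regulators of SRF, 18 were tested, of which 13 were lower, 5 were higher and none passed the test by limma, with 1 at an unadjusted p under 0.05. That one was Rhob, a small GTPase, which was lower on all EXO-Post Palm arrays with a log2 difference of -0.87 and an adjusted p of 0.229. At the other end was Elk4, a ternary complex factor, at 0.61 and 0.543. Of 14 further actins, tropomyosins, calponins, transgelins and contractile partners, 13 were tested and none passed, with 11 lower and 2 higher, a median of -0.32 and 2 at an unadjusted p under 0.05. Cardiac actin, Actc1, had the lowest value of these at -0.93, with an adjusted p of 0.341, and caldesmon, Cald1, the highest at 0.05, with 0.956.

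Of 22 focal adhesion and stress fibre partners of vinculin, all were tested, 17 were lower, 5 were higher and none passed, also at an unadjusted p under 0.05. Their median was -0.21, with Pdlim5, which ties kinases to the Z-disc and to actin, at -0.64 and nonmuscle myosin heavy chain Myh9 at 0.70. The limma adjusted p was 0.639 for Pdlim5 and 0.698 for Myh9. Myh9 was fitted without EXO-Post BSA replicate 3, where its spot was left out. It read 5.99, 5.96 and 4.0 on EXO-Post BSA replicates 1, 2 and 4 and 5.89, 5.91 and 6.24 with EXO-Post Palm. The Myh9 difference thus rested on EXO-Post BSA replicate 4. Immediate early genes, which SRF drives with ternary complex factors, were higher for 6 and lower for 3 of 9, with a median of 0.18, none past the test by limma and 1 in each direction at an unadjusted p under 0.05. Nr4a1, an orphan nuclear receptor, stood at 0.77 with an adjusted p of 0.218 and Egr1, a zinc finger factor, at -0.67 with 0.434, each without overlap of the groups.

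**Figure D4:**
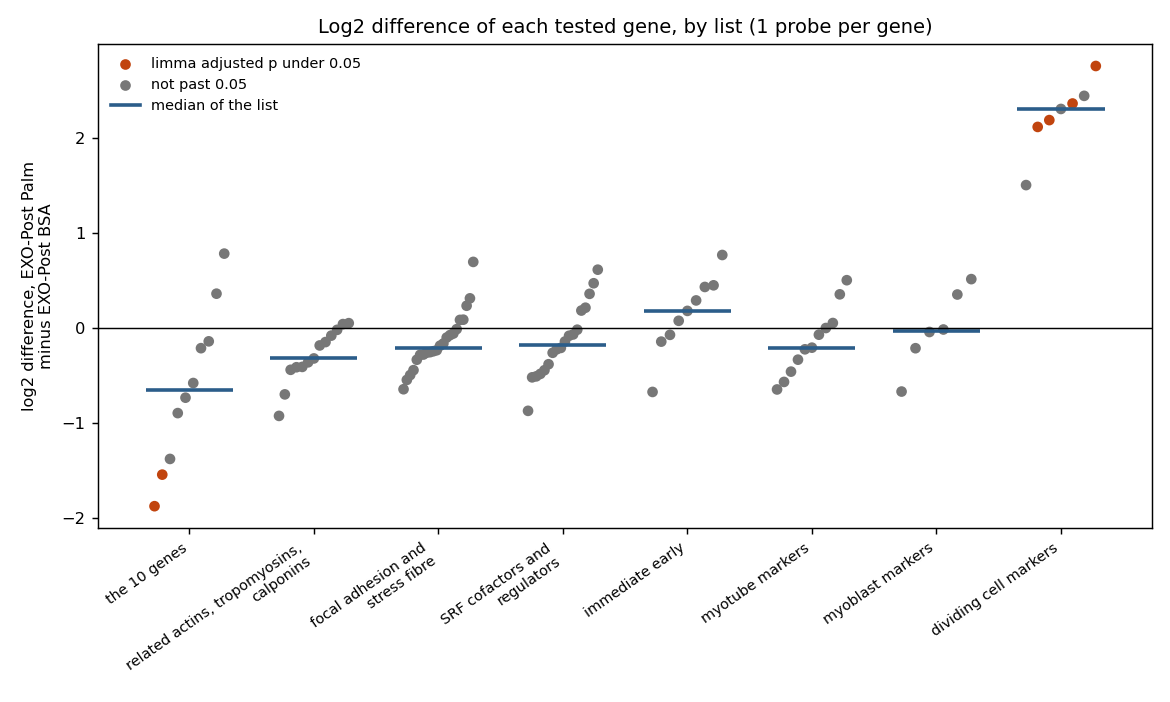
Log2 difference between EXO-Post Palm and EXO-Post BSA of each tested gene, 1 probe per gene, in the 10 genes and in 7 other lists, with the median of each list as a bar. Tagln and Cnn1 lie below every gene of the other lists, and the markers of dividing cells lie above 1.

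Markers of other cell types and states were read on the same arrays, beside 52.7% of all tested probes lower and 10% at an unadjusted limma p under 0.05. Of 6 defining markers of smooth muscle cells, Myh11, Lmod1, Myocd and Kcnmb1 were well above background on 0 of 7 arrays. Smtn had a log2 difference of -0.02, and Synpo2 one of 1.02 with an adjusted p of 0.745. Synpo2, well above background on 6 of 7 arrays, read -1.42, -1.47, -1.78 and -5.42 with EXO-Post BSA and -1.52, -1.14 and -1.84 with EXO-Post Palm. Its difference thus rested on EXO-Post BSA replicate 4. The myotube markers, 8 of 11 lower, none past the test and 2 at an unadjusted p under 0.05, had a median of -0.21, with list means of 4.68 to 5.04 on the EXO-Post BSA arrays and 4.72 to 4.80 on the EXO-Post Palm arrays. Their extremes were the myosin heavy chain Myh8 at -0.65, with an adjusted p of 0.304, and desmin, Des, at 0.50, with 0.446. The myoblast markers were lower for 4 and higher for 2 of the 6 tested, with a median of -0.03, none past the test by limma and 1 at an unadjusted p under 0.05, between the integrin Itga7 at -0.67, with an adjusted p of 0.295, and the adhesion receptor Vcam1 at 0.51, with 0.504. Markers of dividing cells were higher for 7 of the 7 tested, of which Mki67 (2.12), Top2a (2.36), Ccnb1 (2.76) and Plk1 (2.19, all log2 differences) passed the test, and Aurkb was well above background on 0 of 7 arrays. Their list mean was -0.92 to -0.60 on the EXO-Post BSA arrays and 1.47, 0.84 and 2.18 on those with EXO-Post Palm. EXO-Post Palm replicate 2 was thus nearest to the EXO-Post BSA arrays for these markers as it was for Tagln, Acta2, Cnn1, Myl9 and Actg2. It was the farthest from them for Vcl A_52_P190973 and Srf A_55_P2149540, and replicate 1 was the nearest for Tpm1 A_55_P2032192. The part of dividing cells in these differences was not tested.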

How the data were processed

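RNA of C2C12 cells exposed to EXO-Post BSA (4 arrays) or EXO-Post Palm (3 arrays) was measured on 1-colour Agilent mouse arrays, from 0.1 µg of RNA. For each array the authors deposited scanner output, in which the processed signal, an intensity, is background-subtracted but without normalisation between arrays. The file headers name Feature Extraction 10.7.3.1, and 11.5.1.1 for EXO-Post BSA replicate 3, whereas the submitters' processing notes name 9.1. The authors also deposited processed values on the log2 scale, used as an alternative, whose rows were joined to the spots by order (rank correlation with the median intensity at least 0.9936). The methods name Agi4x44PreProcess and limma.

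The values are log2 processed signals, from which the 75th percentile over non-control spots was taken off array by array. Spots marked as uneven or as outliers were left out and repeated spots averaged. No spot was saturated. Probes entered the test when 75% or more of the arrays of either group placed them well above background. Per array, 48.3 to 70.3% of probes stood well above background, and correlations between arrays were 0.947 to 0.984. Testing used limma 3.58.1 in R 4.3.3 on condition alone, 2-sided, with Benjamini-Hochberg adjustment over all tested probes, and the scripts were tested on simulated data. P-values measure the spread between these arrays, whose number limits the precision. For ratios within arrays, all 35 partitions of the arrays were enumerated in an exact permutation test. Promoters and figures were handled in Python 3.11.15 with pandas 2.3.3 and matplotlib 3.10.9.

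Every probe of the 10 genes was reported. From the other lists the text names the probes past the threshold and the genes with the largest rise and fall, and beside Tagln the 5 closest probes, of which 1 is not reported here. A gene was represented by its brightest tested probe. All 18 probes carry an accession with the same symbol in the RefSeq table. The array annotation places the probes on mm9, the promoters are on GRCm38.p6 and no position was carried between them. The 10 genes, the lists and the tests were chosen with earlier results of these data known. Alternatives covered normalisation, background correction (normexp with an offset of 50, on median spot signals because 1 file has no mean signals), the authors' values, filters, slide and replicate blocks, other statistics, the methods' t-test and left-out arrays.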

Additional observations from a re-analysis of the deposited data

Results flagged for a closer look

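One value in the groups of 4 arrays stood apart from the rest. For the Vcl probe A_66_P133244 with EXO-Post BSA, replicate 3 read -2.12 against -1.48, -1.42 and -1.42 on the other arrays. The gap took up 0.915 of the range of the group, above Dixon's critical value for 4 values. It was the only one among 18 such groups of the probes of the 10 genes, and chance gives about 5% of groups such a value. Replicate 3 was the one array read with the later scanner software and was alone on its slide, and the part of either was not tested. Without it, the log2 difference of this probe was -0.13 in place of 0.04.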

How the results depend on the processing

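Over 21 alternatives, left-out arrays included, Tagln, Cnn1, Actg2, Myl9 and Acta2 kept a negative difference. Tagln was past 0.05 in 11 of them, Cnn1 in 12 and Actg2 in 6. Each count includes the methods' t-test without adjustment, and in the other settings the p-value was adjusted. Of the probes of the 10 genes, 2 were past the threshold, against 1 with quantile normalisation or slide as a block, 0 without a filter on dim probes, and 0 to 3 with 1 array left out. The count over all tested probes was 115, against 0 without the filter (1900 at an unadjusted p under 0.05), 181 with slide as a random block, 173 with trended and robust moderation, and 4 (without EXO-Post Palm replicate 3) to 228 (without EXO-Post Palm replicate 2). The methods' t-test gave 2108 probes unadjusted, 5 of them of the 10 genes, and 0 after Benjamini-Hochberg adjustment. Replicate numbers did not pair the arrays (correlations of deviations 0.12, -0.15 and -0.15), and the replicate block gave 0 calls in all (1933 unadjusted) and 0 among the 10 genes. Why the counts moved was not tested.

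The median of the probes of the 10 genes moved to -0.19 with normexp, and to -0.50 to -0.17 with 1 array left out. With normexp and with the authors' values in turn, Tagln over Tagln2 differed by -3.04 and -3.03 and Acta2 over Actg2 by 0.69 and 0.73. Probes near 0 changed sign. Vcl A_66_P133244 stood at -0.016 with median centring, -0.19 with slide as a block and -0.13 to 0.17 with 1 array left out. Tpm1 A_55_P2187043 stood at 0.034 with normexp, 0.022 with the authors' values and -0.27 to 0.062 with 1 array left out, and Tpm2 A_52_P315976 at 0.30 with either, 0.11 with slide as a block and -0.45 to 0.12 with 1 array left out. Tpm1 A_55_P2078680 stood at 0.33 with slide as a block and -0.70 to 0.068 with 1 array left out. The ratio of the Tagln2 probes stood at -0.17 with normexp, -0.13 with the authors' values and -0.50 to 0.47 with 1 array left out. With 1 array left out, the ratios to the brightest Tpm1 probe ranged from -0.52 to 0.31 for A_55_P2078680 and from -0.34 to 0.15 for A_55_P2187053.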
